A study of Mus musculus with 32 samples.

Results

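The class I odorant receptors of the mouse are described here through 107 genes of 19,938 tested on the arrays. They were taken by symbol, as the probe sets annotated to a single gene from Olfr543 to Olfr691. Only 1 member had several probe sets, and the one brightest on average was kept for it. The data came from S100a5-tauGFP mice, in which the tauGFP reporter is tied to S100a5, a gene that olfactory neurons switch on with activity. Mice were housed singly in an olfactometer for 26 h in clean air and then for 14 h with a 10 s pulse every 5 min. Cells of the dissociated adult olfactory mucosa were sorted into GFP-positive and GFP-negative fractions, and their total RNA was hybridised to Affymetrix arrays. One set of experiments gave eugenol, the main odorant of cloves, or vehicle, and the other gave muscone, a musk odorant, or vehicle. The 8 groups were thus GFP-negative and GFP-positive cells after vehicle and after odorant in each set, with 4 arrays in each. All groups share the reporter genotype and the 26 h of clean air. An experiment is a run of 4 arrays, 1 from each group of a set, that share a number in their titles, and there were 8 experiments. The labels do not say whether experiments used separate animals or pools, so p-values measure the spread between these arrays.

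Each mature olfactory neuron expresses 1 odorant receptor gene from 1 allele, and the receptor signals through the G protein alpha subunit Gnal, adenylyl cyclase Adcy3 and a cyclic nucleotide-gated channel. Class I receptors are the family that mammals share with fish. They form a single cluster, are expressed mostly in the dorsal zone of the epithelium, and many respond to water-soluble odorants such as carboxylic acids. Eugenol and muscone are best known as ligands of class II receptors, which make up the rest of the odorant receptors.

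The number range was checked against names and positions in the RefSeq table for GRCm38.p6. All 107 members lie on chromosome 7. All 106 members with a synonym in the MOR nomenclature, which numbers receptor families by protein sequence, fell in families 1 to 42, the class I families, and 2 of them also carried a second family name outside that range. Members came from 39 of those families, and 11 of the other 906 odorant receptors with such a synonym had a class I family name. The table lists 146 symbols of the range, 29 of them pseudogenes with the suffix -ps, and 107 had a probe set of their own, none of them with that suffix. Probe sets that also name another gene were left out of the counts. The other 920 odorant receptors on the array served for comparison.

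Upstream sequences are shown first because neighbouring genes of the cluster moved in different directions in the sorted cells. RefSeq upstream sequences (GRCm38.p6) were available for 91 members. In 68 the gene model begins at the ATG, so its upstream exon is not annotated, and in 23 it begins before the coding sequence. The 250 bases before the start are shown for 4 of those 23. They are Olfr570, the member with the largest rise in GFP-positive cells, Olfr654 and Olfr557, which also rose and hold a TAATGA, and Olfr629, the only 1 of the 23 that was lower. Capitals mark matches to TAATTA or TAATGA on either strand, the core letters of sites for homeodomain factors such as Lhx2. The windows are chr7:102900092-102900341 (plus strand), chr7:104587469-104587718 (plus strand), chr7:102697966-102698215 (plus strand) and chr7:103741323-103741572 (minus strand), in the same order, each 5′ to 3′.
Olfr570: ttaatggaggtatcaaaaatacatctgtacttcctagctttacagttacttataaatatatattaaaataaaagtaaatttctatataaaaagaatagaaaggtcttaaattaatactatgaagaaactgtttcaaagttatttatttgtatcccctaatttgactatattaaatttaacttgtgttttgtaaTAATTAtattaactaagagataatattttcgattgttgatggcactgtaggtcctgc
Olfr654: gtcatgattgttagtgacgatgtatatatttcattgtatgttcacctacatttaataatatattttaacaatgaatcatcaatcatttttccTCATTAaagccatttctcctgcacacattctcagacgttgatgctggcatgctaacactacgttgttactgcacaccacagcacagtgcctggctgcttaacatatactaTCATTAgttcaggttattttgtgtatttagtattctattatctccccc
Olfr557: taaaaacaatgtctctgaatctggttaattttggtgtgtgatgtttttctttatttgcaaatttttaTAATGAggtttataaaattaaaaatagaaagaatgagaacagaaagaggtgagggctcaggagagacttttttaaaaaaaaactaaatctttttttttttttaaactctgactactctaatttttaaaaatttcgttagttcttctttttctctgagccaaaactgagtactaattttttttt
Olfr629: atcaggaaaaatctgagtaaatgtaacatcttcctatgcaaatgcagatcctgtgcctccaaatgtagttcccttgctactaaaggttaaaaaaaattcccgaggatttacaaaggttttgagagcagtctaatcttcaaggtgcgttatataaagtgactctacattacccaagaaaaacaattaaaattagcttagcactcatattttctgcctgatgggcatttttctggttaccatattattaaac

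Olfr570 holds its TAATTA 57 bases before the start. Olfr654 holds TAATGA on the opposite strand at 158 and at 48 bases before it, and Olfr557 on the strand shown at 183 bases. Olfr629 holds neither, and so do 13 of the 20 windows of higher members among the 23. In the 68 others, 37 of 50 windows of higher members and 5 of 10 of lower members held neither. Olfr654 and Olfr557 are shown because they hold a match. Among the 23 windows with an annotated upstream start, 2 (8.7%) held TAATTA and 7 (30.4%) held TAATGA. Among the 68 that start at the ATG, 10 (14.7%) held TAATTA and 15 (22.1%) held TAATGA. In all 32851 upstream windows of the same length the shares were 4.84% and 8.59%. Class I windows were richer in A and T, with a median of 63.2% in the 23 and 64.4% in the 68, against 47.6% in all windows, and the 2 motifs can share bases. A match is a description of the letters and not a binding site.

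Signals are the deposited log2 values. Levels of different probe sets are not comparable, so members are compared with themselves across groups. The median over all probe sets of an array ran from 6.72 to 8.81, and the median over the class I receptors from 6.28 to 10.48. Muscone experiments 2 and 3 had the lowest arrays. As a yardstick for dim probe sets, the 95th percentile of the 163 vomeronasal receptor genes, which belong to another organ, was taken in each group. By it, 96 members were above the dim level in all 8 groups, 8 in some and 3 in none, and 98 to 103 of the 107 were above it in any 1 group. Omp, the marker of mature olfactory neurons, lay between 12.36 and 14.37. S100a5 lay between 10.62 and 12.16 on the arrays of eugenol experiment 1 and between 4.63 and 8.08 on the others, and it was higher in GFP-positive than in GFP-negative vehicle cells in 8 of 8 experiments, by 0.43 ± 0.15 (SE, limma adjusted p = 0.0171). After eugenol it was higher in 4 of 4 experiments (0.54 ± 0.21, adjusted p = 0.0444). After muscone it was higher in 3 of 4 (0.17 ± 0.21, adjusted p = 0.511), and in muscone experiment 2 the GFP-positive array had 6.2 and the GFP-negative array 6.85.

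**Figure D1:**
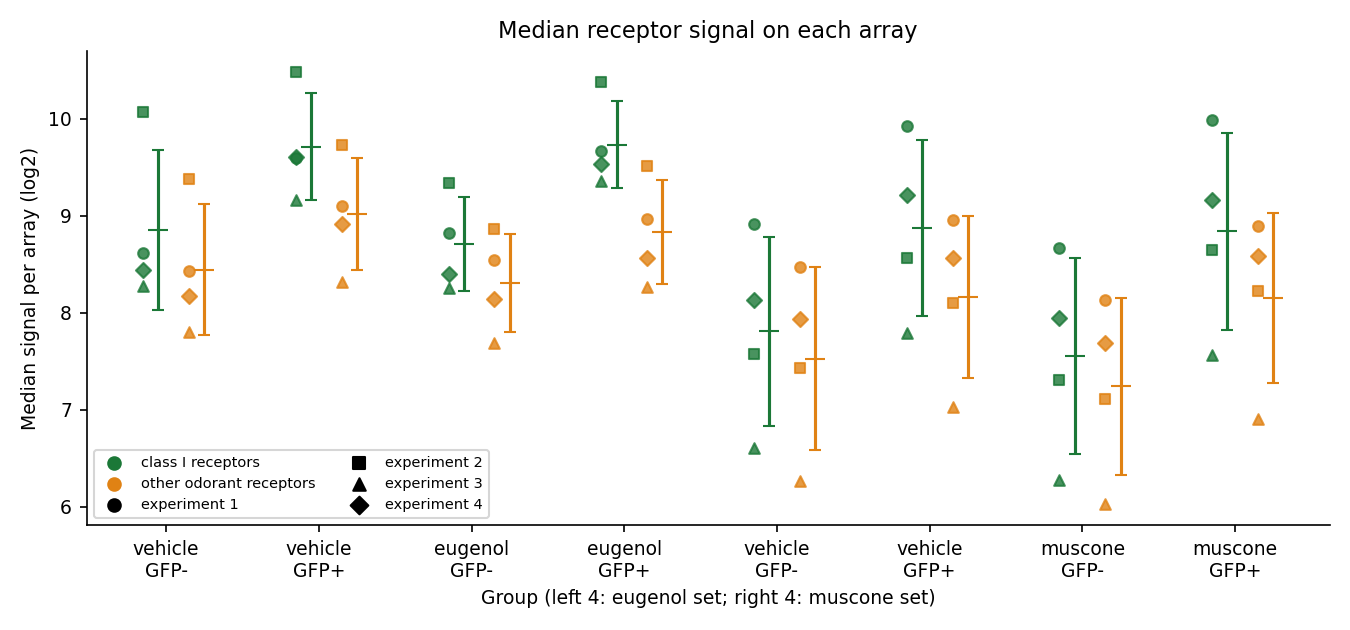
Median log2 signal over the 107 class I receptors (green) and over the other 920 odorant receptors (orange) on each of the 32 arrays, by group, with the symbol giving the experiment and the bar the mean ± SD of 4 arrays. In each set the class I mean of the GFP-positive groups is above that of the GFP-negative groups, and arrays of 1 experiment largely keep their order across groups.

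The group mean of the class I median per array was 8.85 ± 0.82 (SD, n = 4) in GFP-negative and 9.71 ± 0.55 in GFP-positive vehicle cells of the eugenol set. After eugenol it was 8.7 ± 0.49 and 9.74 ± 0.45. In the muscone set it was 7.81 ± 0.97 and 8.88 ± 0.91 after vehicle, and 7.55 ± 1.01 and 8.84 ± 1.02 after muscone. The spread between arrays of a group followed the experiment, so all differences below were taken within experiments.

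The first comparison asked which class I receptors were enriched in cells carrying the activity reporter when no test odorant was given. Most were. In vehicle-treated mice 81 of the 107 class I receptors (75.7%) were higher in GFP-positive than in GFP-negative cells, 14 (13.1%) were lower and 12 did not pass the threshold of an adjusted p under 0.05. The percentages over all genes tested were 45.1% higher and 21.9% lower, and over the other odorant receptors 64.3% (592 of 920) and 20.1% (185). The median difference was 0.95 on the log2 scale (quartiles 0.32 and 1.32) against 0.71 for the other odorant receptors, 1.04 for the 13 trace amine-associated receptors and 0.14 for all genes. Differences of more than 1 were found in 50 members upward (2.28% of all genes) and in 7 downward (6.95% of all genes). Of the other 920 odorant receptors, 359 were that far upward and 110 that far downward. These shares are a description, and no test set class I against the other receptors. In a mixed cell fraction, fewer cells expressing a receptor and less of its RNA per cell cannot be told apart.

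The direction held from experiment to experiment. The median over members was positive in 8 of 8 experiments, at 0.91, 0.37, 0.75 and 1.12 in eugenol experiments 1 to 4 and at 0.75, 0.94, 1.26 and 1.13 in muscone experiments 1 to 4. Singly, 75 members (70.1%) were positive and 8 (7.48%) were negative in 8 of 8 experiments. Over all genes those shares were 26.4% and 15.9%, and over the other odorant receptors 52.9% and 14.8%. Without the experiment as a block in the fit, 34 members were higher and 6 lower (1.71% and 6.66% of all genes).

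**Figure D2:**
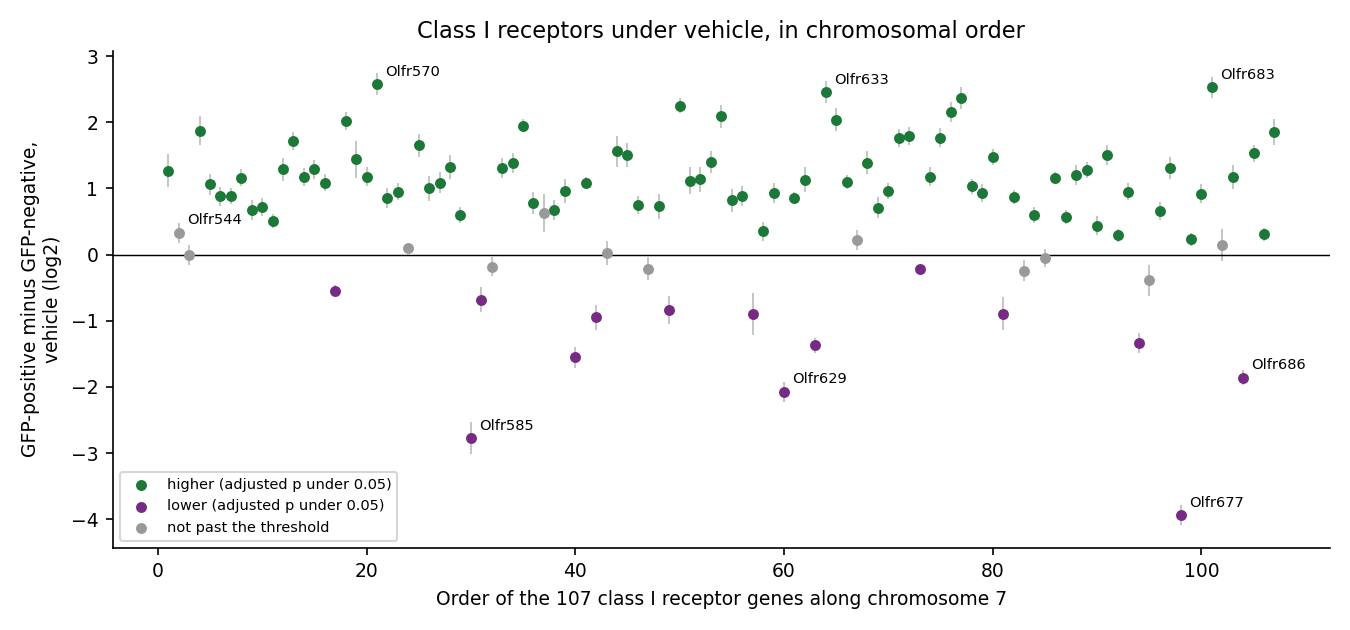
Difference between GFP-positive and GFP-negative vehicle cells (log2, vertical axis) for each class I receptor in its order along chromosome 7 (horizontal axis), with bars giving ± 1 SE. The 81 higher (green), 14 lower (purple) and 12 other (grey) members are interspersed along the cluster, and Olfr677 is lowest at −3.94.

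Olfr570 rose most. Its signal in GFP-negative vehicle cells was 7.61, 9.73, 7.68 and 7.36 in the eugenol set and 8.22, 6.85, 5.34 and 7.87 in the muscone set. In GFP-positive cells it was 10.12, 11.59, 10.28 and 10.5, and 10.83, 9.71, 8.55 and 9.74. Every GFP-positive array was above every GFP-negative array of its set, by the least in the muscone set, where 8.55 in experiment 3 stood next to 8.22 in experiment 1. The difference was 2.58 ± 0.16 (SE), a 5.99-fold rise (adjusted p = 8.6e-12), with 1.86 to 3.21 in single experiments.

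Olfr683 had 7.34, 8.78, 6.47 and 6.85 in GFP-negative vehicle cells of the eugenol set and 7.09, 6.4, 5.19 and 7.3 in those of the muscone set. Its GFP-positive values were 9.44, 10.2, 9.36 and 9.84, and 9.76, 9.13, 8.73 and 9.22. The fractions did not overlap in either set. The rise was 2.53 ± 0.16 or 5.79-fold (adjusted p = 2.19e-11). Olfr613, with the smallest error among the 5 largest rises, went from 7.08, 7.67, 6.31 and 6.88 to 8.74, 9.8, 8.99 and 9.17 in the eugenol set. In the muscone set it went from 6.91, 5.79, 5.08 and 6.78 to 9.01, 8.68, 7.19 and 8.93. Neither set showed overlap, and the rise was 2.25 ± 0.11 or 4.77-fold (adjusted p = 3.64e-13).

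The other members among the 10 largest rises were Olfr633 (2.46), Olfr651 (2.37), Olfr649 (2.15), Olfr618 (2.09), Olfr635 (2.04), Olfr566 (2.02) and Olfr593 (1.95). Their standard errors ran from 0.1 for Olfr593 to 0.17 for Olfr633, Olfr651, Olfr618 and Olfr635. Each was higher in 8 of 8 experiments. The remaining higher members ran from 0.23 for Olfr678 to 1.87 for Olfr547.

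Olfr677 was lower by far the most. In the eugenol set its GFP-negative vehicle cells had 10.78, 11.59, 10.9 and 10.67 and its GFP-positive cells 7.95, 7.38, 7.28 and 7.58. In the muscone set the values were 11.37, 9.93, 9.1 and 10.5 against 6.57, 6.1, 4.32 and 6.15. No GFP-positive array of either set reached the lowest GFP-negative array. The difference was −3.94 ± 0.15 (adjusted p = 6.84e-15) and ranged from −4.81 to −2.83 between experiments. In the muscone set the GFP-positive mean was under the dim level. With each GFP-positive value raised to the dim level of its array where it was under it, Olfr677 was at least 13.8-fold lower, and the bounds below were taken in the same way.

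Olfr585 had 9.29, 10.63, 8.62 and 8.66 in GFP-negative and 6.58, 7.44, 6.29 and 6.16 in GFP-positive vehicle cells of the eugenol set. In the muscone set it had 9.81, 7.61, 6.86 and 8.06 against 6.9, 5.43, 3.53 and 5.04. The fractions were apart in the eugenol set and touched in the muscone set, where the GFP-positive array of experiment 1 at 6.9 exceeded the GFP-negative array of experiment 3 at 6.86. Taken within experiments it was lower in 8 of 8 (−2.77 ± 0.24, adjusted p = 1.91e-09). Its GFP-positive means were at or under the dim level in both sets, so the fall was at least 5.03-fold.

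Olfr629 had 8.49, 9.2, 7.54 and 7.74 against 6.39, 6.99, 5.1 and 6.15 in the eugenol set, and 8.18, 7.19, 7.52 and 7.85 against 6.0, 5.72, 4.77 and 6.04 in the muscone set. The fractions did not overlap. The difference was −2.07 ± 0.15 (adjusted p = 2.14e-10), and with GFP-positive means under the dim level in both sets the fall was at least 3.15-fold. Olfr686 was 3.63-fold lower (−1.86 ± 0.11, adjusted p = 8.17e-12).

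The other members that were lower in 8 of 8 experiments were Olfr600 (−1.55), Olfr632 (−1.37), Olfr671 (−1.33) and Olfr564 (−0.55). The 6 further lower members, Olfr603 (−0.95), Olfr622 (−0.9), Olfr655 (−0.89), Olfr611 (−0.84), Olfr586 (−0.68) and Olfr645 (−0.21), fell in most but not in all experiments. Olfr645 passed with the smallest size, at a standard error of 0.05. The GFP-positive vehicle mean was at or under the dim level in both sets for 3 of the 14, Olfr585, Olfr629 and Olfr564. For Olfr564 the GFP-negative level was itself so near the dim level that no bound above 1 could be given. Olfr600 was under it in the eugenol set and at least 2.39-fold lower.

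The 12 members that did not pass were Olfr544, Olfr545, Olfr574, Olfr589, Olfr597, Olfr605, Olfr609, Olfr639, Olfr657, Olfr659, Olfr672 and Olfr684. Their differences ran from −0.39 for Olfr672 to 0.63 for Olfr597, whose standard error of 0.29 was among the largest. The 3 members under the dim level in all 8 groups were Olfr574, Olfr624 and Olfr663, and the latter 2 were still called higher, by 0.93 and 0.57. The 8 members above it in some groups were Olfr564, Olfr585, Olfr589, Olfr600, Olfr629, Olfr630, Olfr631 and Olfr677. Of these, Olfr631 was above it in 2 groups and rose by 1.13, and Olfr677 was above it in 7.

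**Figure D3:**
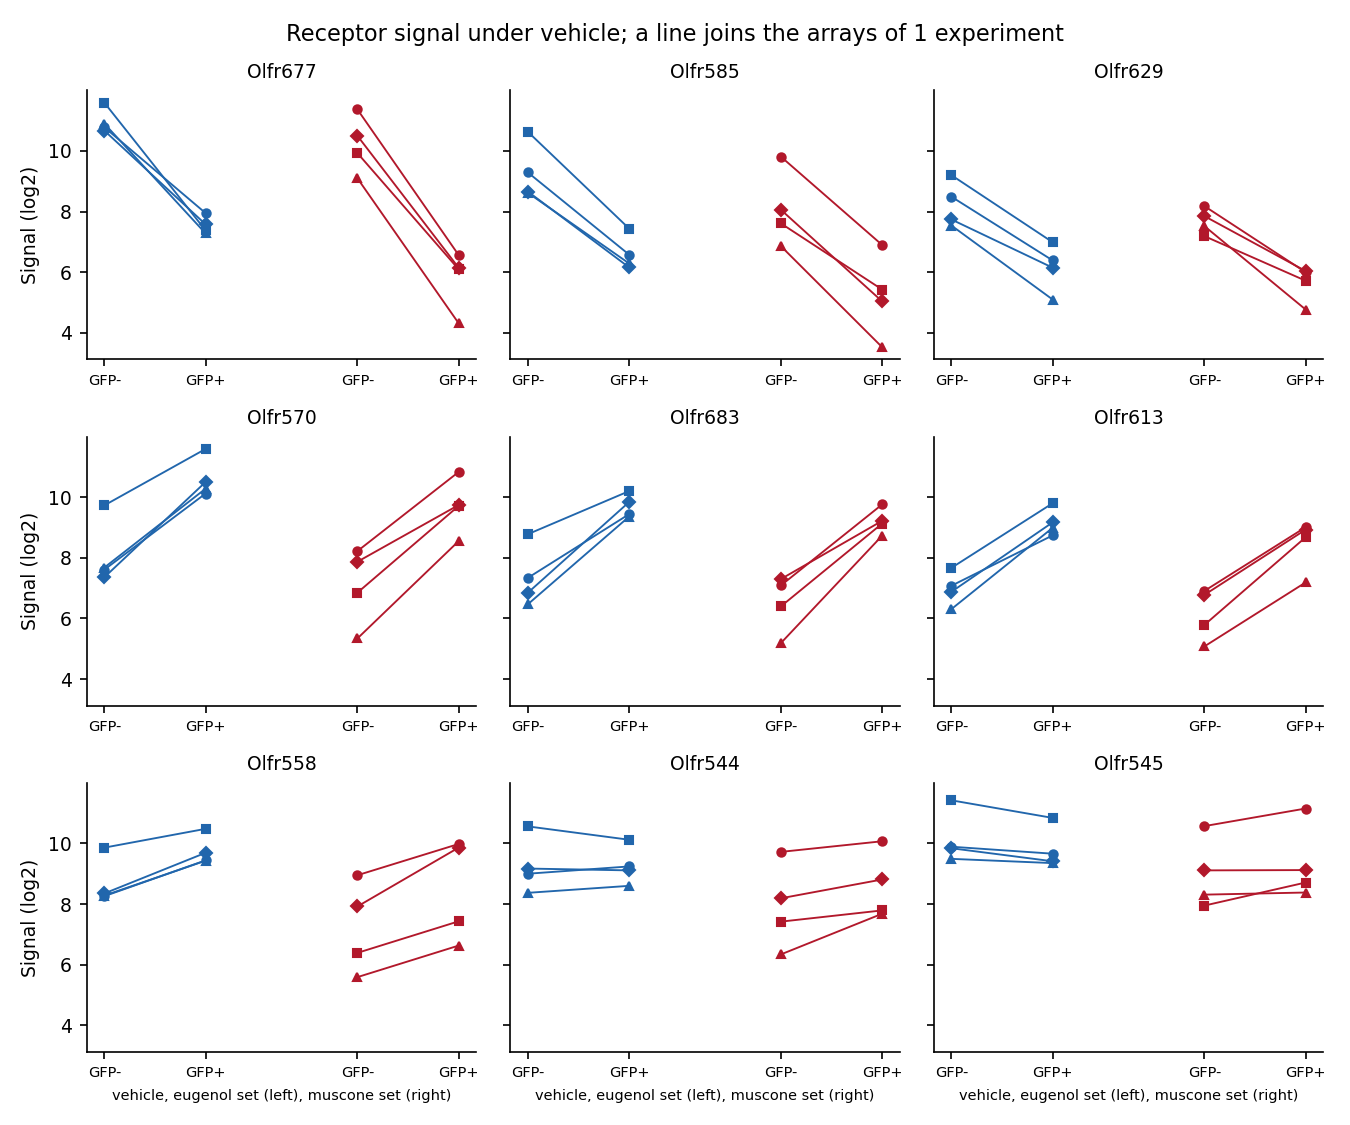
Log2 signal of 9 class I receptors in GFP-negative and GFP-positive vehicle cells, with blue for the eugenol set, red for the muscone set, and a line joining the 2 arrays of an experiment. The lines fall in every experiment for Olfr677, Olfr585 and Olfr629, rise in every experiment for Olfr570, Olfr683, Olfr613 and Olfr558, and go both ways for Olfr544 and Olfr545.

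Among receptors with known ligands, Olfr558, the orthologue of human OR51E1 and a receptor for isovaleric acid, went from 8.26, 9.86, 8.28 and 8.35 to 9.44, 10.48, 9.43 and 9.69 in the eugenol set. In the muscone set it went from 8.95, 6.39, 5.59 and 7.92 to 9.98, 7.43, 6.63 and 9.86. The fractions overlapped across arrays, yet GFP-positive cells were higher in 8 of 8 experiments, by 1.17 ± 0.14 or 2.25-fold (adjusted p = 2.28e-07). Olfr544, a receptor for azelaic acid, differed by 0.33 ± 0.15 (adjusted p = 0.0552) and was higher in 6 of 8 experiments. It had −0.01 in the eugenol set and 0.67 in the muscone set. Olfr545, its neighbour and also responsive to carboxylic acids, showed a difference of 0.00 ± 0.15 (adjusted p = 0.984), higher in 4 and lower in 4 of 8 experiments, with −0.35 and 0.35 in the 2 sets. Olfr543, the remaining member of their family MOR42, was higher by 1.27 ± 0.25 (adjusted p = 0.000162).

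The 5 probe sets with the highest mean over the 32 arrays were those of Olfr672, Olfr549, Olfr594, Olfr652 and Olfr653. In GFP-negative and GFP-positive vehicle cells of the eugenol set Olfr672 had means of 11.82 and 10.93, and in the muscone set of 11.08 and 11.19. Its difference did not pass the threshold (−0.39 ± 0.24, adjusted p = 0.148). The other 4 rose, Olfr549 by 1.06, Olfr652 by 1.03, Olfr653 by 0.93 and Olfr594 by 0.78.

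Higher and lower members were interspersed along the cluster. From Olfr543 to Olfr594, 29 of 36 members were higher and 3 lower (median 1.07). From Olfr597 to Olfr644 the counts were 26 and 6 of 36 (median 0.91), and from Olfr645 to Olfr691 they were 26 and 5 of 35 (median 0.92). The median gap between a member and the next one measured was 0.85 over 106 pairs, and between any 2 members 0.84 over 5671 pairs. The correlation between neighbours was 0.03 across genes. In 23 neighbouring pairs 1 gene was higher and the other lower. Olfr632 (−1.37) lies beside Olfr633 (2.46), and Olfr677 (−3.94) lies between Olfr676 (1.31) and Olfr678 (0.23).

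Sequence families gave different counts, given here as a description. All 10 measured members of MOR31 were higher, with a median of 1.81 and a span from 0.31 for Olfr690 to 2.37 for Olfr651. Besides Olfr651, Olfr649 and Olfr618 it holds Olfr547 (1.87), Olfr691 (1.85) and Olfr648 (1.77). MOR32, with 11 members, had 6 higher and 3 lower, a median of 0.23 and the widest span, from −3.94 for Olfr677 to 1.38 for Olfr592. MOR14 had 3 higher and 2 lower of 6, from −2.77 for Olfr585 to 2.02 for Olfr566. In MOR34 6 of 7 were higher (median 0.6), in MOR40 5 of 7 (0.92) and in MOR13 5 of 6, with Olfr645 lower (median 1.17). Members of a family are related in sequence, so a probe set can in part read a relative, and they are not independent.

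The vehicle comparison was made in both sets on separate arrays, which allowed the members to be compared between them. Across the 107 members the differences of the eugenol and the muscone set had a Pearson correlation of 0.93 and a Spearman correlation of 0.88 (0.94, Pearson, for the other odorant receptors). These are across genes of 1 array platform and carry no p. The sign was shared by 97 members, positive for 82 and negative for 15. The other 10, among them Olfr544, Olfr545, Olfr639 and Olfr672, were negative in the eugenol set and positive in the muscone set, and none was the other way round. The median was 0.8 in the eugenol and 1.12 in the muscone set. This lean towards the muscone set was kept in most scalings but not in all. The median of the eugenol minus the muscone difference was −0.25, with 87 members negative. Centred on all probe sets it was −0.24 (87 negative), with quantile normalization −0.2 (79) and centred on the other odorant receptors −0.19 (80). Once arrays were centred on the mature neuron list it was 0.07, with 50 negative. Without eugenol experiment 2 the median was −0.15, and without both muscone experiments 2 and 3 it was −0.11.

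No member passed the test of the difference between sets (limma, 0 of 107; 0.0% of all genes in either direction). At an unadjusted p under 0.05 there were 23 members, 22 of them with a smaller value in the eugenol set (21.5% of members in either direction, against 15.6% of all genes, and 20.6% with a smaller value, against 9.96%). Centred on the other odorant receptors there were 20, of which 19 had a smaller value in the eugenol set. Centred on the mature neuron list there were 14, of which 4 had a smaller and 10 a larger value. There 1 member passed the test with a larger value in the eugenol set (1.54% of all genes). Leaving out 1 experiment gave 14 to 28 members. The count was 14 without eugenol experiment 2 or muscone experiment 2 or 3, and 0 without the block. The smallest p-values belonged to Olfr639, with −0.38 ± 0.34 (SD, n = 4) in the eugenol and 0.81 ± 0.17 in the muscone set (adjusted p = 0.152), Olfr670 with 0.48 and 1.42 (adjusted p = 0.177) and Olfr603 with −1.61 and −0.29 (adjusted p = 0.181).

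**Figure D4:**
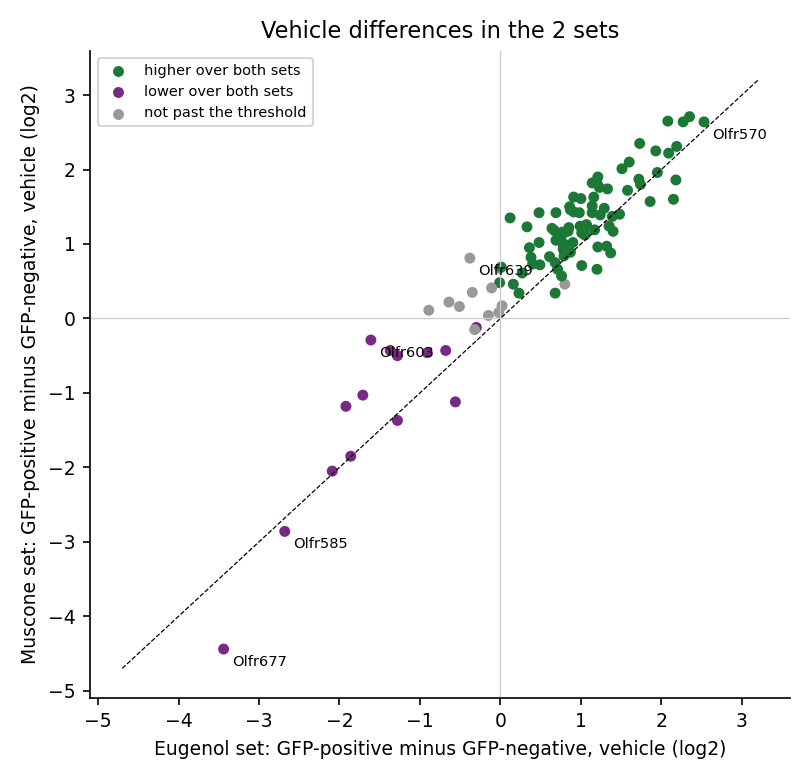
Difference between GFP-positive and GFP-negative vehicle cells (log2) for each of the 107 class I receptors in the eugenol set (horizontal axis) and the muscone set (vertical axis), coloured by the result over both sets, with equal values on the dashed line. The points follow the line with a correlation of 0.93 across genes, and 10 lie in the upper left field and none in the lower right field.

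Other genes moved between the fractions too, and of all genes 45.1% were higher and 21.9% lower. All 17 genes of olfactory transduction and receptor trafficking were higher in GFP-positive vehicle cells (median 0.57), among them Reep1 (0.77), a receptor trafficking protein, and the phosphodiesterase Pde1c (0.81). All 15 mature neuron markers were higher (median 0.49), including Slc17a6 (0.63), the neurons' glutamate transporter. Most of these markers, such as Omp, Cnga2, Adcy3 and Pde1c, are also on the transduction list, so both lists largely count the same genes. Of 10 immature neuron markers 8 were lower (median −1.1), with Nhlh1 at −3.16 and Dpysl3 at −2.08. All 6 basal progenitor markers measured (median −2.56; Neurod1 −3.75, Top2a −2.71), all 5 of microvillous cells (−2.11; Rgs13 −4.7, Trpm5 −3.69), all 8 immune (−3.49; Ly6g −4.69, Cd79b −3.48) and both erythroid markers (−3.34; Slc4a1 −3.54, Alas2 −3.15) were lower. Of 6 sustentacular markers 1 was lower (Notch2 −1.63), and Cbr2 had −0.43.

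The mean level of the mature neuron list ran from 10.77 to 13.13 over the GFP-negative and from 11.73 to 13.37 over the GFP-positive arrays. That of the immune list ran from 10.61 to 11.87 and from 7.26 to 9.04, and of the genes on these lists Rgs13 was at or under the dim level in GFP-positive vehicle cells of both sets and Ly6g and Neurod1 in those of the muscone set alone. With each array centred on the mature neuron list, 55 class I receptors were higher and 29 lower (median 0.28), while 2.73% of all genes were higher and 90.6% lower. Centred on the other odorant receptors, 60 were higher and 27 lower (median 0.35), against 3.45% and 88.9% of all genes. The part of the cell mixture in the 81 and 14 calls was not otherwise tested.

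Genes of receptor choice and of the epithelial zones were also read, since class I neurons lie mostly dorsally. Of 14 choice regulators 3 were higher and 5 lower (median −0.04). Rcor1, a corepressor of neuronal genes, was lower by −0.84 and Lbr, the lamin B receptor whose loss lets receptor gene clusters gather in mature neurons, by −1.04. Bcl11b, which controls the choice between class I and class II, was at −0.22 (adjusted p = 0.00359). Lhx2 was at −0.02 and Ldb1 at −0.06, both short of the threshold. The dorsal markers Nqo1 (0.54) and Acsm4 (0.47) were higher and Robo2 (0.06) did not pass, and of the ventral markers Ncam2 (0.16) was higher and Nrp2 (0.02) did not pass.

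After eugenol, GFP-positive cells were again higher than GFP-negative cells for 74 class I receptors and lower for 15 (28.3% and 18.3% of all genes), with a median of 0.96. The class I shares were 69.2% and 14.0%, against 58.2% and 19.0% of the other odorant receptors (median 0.7). The largest rises were those of Olfr633 (2.65 ± 0.24, SE), Olfr547 (2.5 ± 0.31), Olfr683 (2.46 ± 0.23), Olfr649 (2.43 ± 0.21) and Olfr613 (2.31 ± 0.16). The largest falls were those of Olfr677 (−3.59 ± 0.21), Olfr585 (−2.59 ± 0.34), Olfr686 (−2.03 ± 0.16), Olfr629 (−1.84 ± 0.22) and Olfr600 (−1.6 ± 0.23). Olfr677 had 10.55, 11.45, 10.69 and 10.73 in GFP-negative and 7.75, 7.25, 7.11 and 6.96 in GFP-positive cells, again without overlap. Without the block 12 members rose and 4 fell (0.602% and 3.79% of all genes), and 27 fell once arrays were centred on the other odorant receptors, where 74.1% of all genes fell. Against the dim level the falls of Olfr585, Olfr629 and Olfr600 were at least 4.43-fold, 2.38-fold and 2.45-fold.

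After muscone 85 class I receptors were higher and 7 lower (35.1% and 21.5% of all genes), with a median of 1.35. The class I shares were 79.4% and 6.54%, against 65.8% and 13.4% of the other odorant receptors (median 0.98). Olfr633 (2.79 ± 0.24), Olfr683 (2.76 ± 0.23), Olfr570 (2.75 ± 0.22), Olfr635 (2.53 ± 0.24) and Olfr618 (2.5 ± 0.24) rose most. Olfr677 (−3.44 ± 0.21), Olfr585 (−2.72 ± 0.34), Olfr629 (−2.19 ± 0.22) and Olfr686 (−1.65 ± 0.16) fell most, followed by Olfr611 (−1.02 ± 0.3, adjusted p = 0.00625). Olfr677 had 11.1, 9.83, 8.1 and 9.88 in GFP-negative and 7.05, 6.43, 4.71 and 6.96 in GFP-positive cells. The fractions did not overlap. Leaving out muscone experiment 4 reduced the lower members from 7 to 4 and left Olfr611 short of the threshold (−0.85, adjusted p = 0.0521). Without the block 27 rose and 4 fell (1.23% and 5.48% of all genes), and centred on the other odorant receptors 54 rose and 19 fell (2.66% and 90.9% of all genes). Against the dim level the falls of Olfr585 and Olfr629 were at least 4.87-fold and 3.55-fold. Each comparison uses GFP-negative arrays of its own, and whether the odorant changed the difference is tested below.

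The next comparisons asked whether an odorant moved a class I receptor. In GFP-positive cells none did by the test. After eugenol 0 of 107 passed (0.0% of all genes in either direction), and 2 had an unadjusted p under 0.05, 1.87% of members against 4.63% of all genes. The median was 0.01, with −0.03, −0.16, 0.23 and −0.11 in the 4 experiments, and −0.11 for the other odorant receptors. Without eugenol experiment 3 the class I median was −0.09. With arrays centred on the other odorant receptors it was 0.2, and centred on the mature neuron list 0.02. The smallest p-values belonged to Olfr686 (−0.35 ± 0.16), Olfr645 (0.16 ± 0.08) and Olfr570 (−0.35 ± 0.22). Olfr570, for example, had 10.12, 11.59, 10.28 and 10.5 after vehicle and 9.8, 11.07, 10.17 and 10.07 after eugenol, which overlap.

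After muscone 0 of 107 passed in GFP-positive cells (1 gene of all, 0.00502%, was higher and 0.0% lower), and 7 had an unadjusted p under 0.05, 6.54% of members against 3.74% of all genes. The median was −0.04, and 0.03 without muscone experiment 3. Olfr630 (−0.34 ± 0.11), Olfr667 (0.56 ± 0.19) and Olfr600 (0.57 ± 0.23) had the smallest p-values, at adjusted p-values of 1.0. The eugenol effect minus the muscone effect had 0 members past the threshold (0.0% of all genes higher, 0.00502% lower) and 2 at an unadjusted p under 0.05 (1.87%, against 6.97% of all genes). It was −0.78 ± 0.3 for Olfr677, 0.26 ± 0.11 for Olfr645 and 0.31 ± 0.16 for Olfr574.

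In GFP-negative cells 0 members passed after eugenol (0.0% of all genes in either direction) and 6 had an unadjusted p under 0.05, 5.61% of members against 2.34% of all genes. Olfr645 (0.2 ± 0.08), Olfr566 (0.47 ± 0.2) and Olfr556 (−0.55 ± 0.24) led. The median was −0.18, against −0.14 for the other odorant receptors and −0.04 for all genes. With arrays centred on the other odorant receptors the class I median was −0.04, and centred on the mature neuron list −0.08. The experiments gave class I medians of 0.22, −0.73, −0.08 and −0.02. Without eugenol experiment 2 it was −0.01, and without experiment 1 it was −0.3. The GFP-negative vehicle array of eugenol experiment 2 had the highest class I median of its group, 10.07.

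After muscone, GFP-negative cells had lower values for 94 of the 107 class I receptors and 0 passed singly (0.0% of all genes in either direction). Values were also lower for 804 of the other 920 odorant receptors, and for 9446 of all 19,938 genes. At an unadjusted p under 0.05 there were 24, of which 23 were lower. That is 22.4% of members against 19.2% of the other odorant receptors and 8.55% of all genes. For the lower ones it is 21.5% against 19.1% and 4.37%. The median was −0.24, with −0.4, −0.2, −0.1 and −0.21 in the 4 experiments. For the other odorant receptors it was −0.25 and for all genes 0.01.

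Olfr675 had the smallest p, with 8.88, 8.0, 5.49 and 8.23 after vehicle and 8.18, 7.05, 4.3 and 7.56 after muscone in GFP-negative cells. The groups overlapped, while the 4 experiments gave −0.7, −0.95, −1.19 and −0.67 (−0.88 ± 0.2, adjusted p = 0.241). Olfr661 (−0.52 ± 0.13, adjusted p = 0.282) had −0.54, −0.19, −0.97 and −0.38. Olfr616 (−1.05 ± 0.28, adjusted p = 0.296) had −0.98, −0.46, −2.51 and −0.27, its size resting on muscone experiment 3. In the same comparison the mature neuron list had a median of −0.14 and the immune list of 0.32, with 0 genes of either past the threshold, and their part was not tested. With arrays centred on the other odorant receptors the class I median was 0.05, 5 members were higher and 2 lower, Olfr675 (−0.59) and Olfr616 (−0.77), while 52.1% of all genes were higher and 0.1% lower. Centred on the mature neuron list it was −0.09.

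Enrichment, the change that an odorant made in the difference between GFP-positive and GFP-negative cells, was the last quantity. For eugenol 0 members passed (0.0% of all genes in either direction) and 2 had an unadjusted p under 0.05, 1.87% against 1.19% of all genes. The median was 0.15, against 0.01 for the other odorant receptors. With arrays centred on the other odorant receptors the class I median was 0.2, and centred on the mature neuron list 0.07. It moved to 0.05 without eugenol experiment 2, to 0.09 without experiment 3, to 0.27 without experiment 1 and to 0.23 without experiment 4. Olfr654 (0.56 ± 0.24), Olfr666 (0.52 ± 0.25) and Olfr620 (0.52 ± 0.29) led. For muscone 0 passed (0.00502% of all genes higher, 0.0% lower) and 13 had an unadjusted p under 0.05, all of them positive. That is 12.1% against 11.7% of the other odorant receptors and 4.45% of all genes. The median was 0.22 for class I and 0.23 for the other odorant receptors. It reversed to −0.05 with arrays centred on the other odorant receptors, was 0.11 centred on the mature neuron list and was 0.33 without muscone experiment 3. Olfr675 (0.98 ± 0.28, adjusted p = 0.982), Olfr677 (0.99 ± 0.3) and Olfr592 (0.95 ± 0.31) led. These values share the GFP-negative arrays of the preceding paragraphs.

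**Figure D5:**
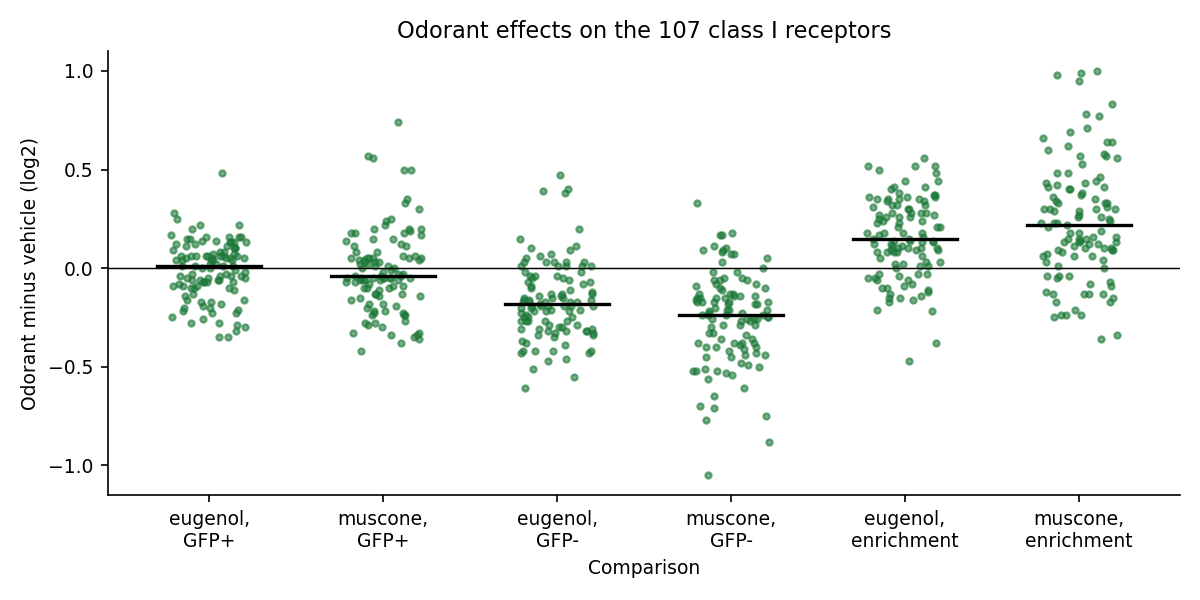
Odorant minus vehicle (log2, vertical axis) for each of the 107 class I receptors in GFP-positive cells, in GFP-negative cells and for enrichment, the odorant effect in GFP-positive minus that in GFP-negative cells, with a bar at the median. Medians are 0.01 and −0.04 in GFP-positive and −0.18 and −0.24 in GFP-negative cells after eugenol and muscone, and no point passed the test.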

How the data were processed

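RNA from sorted cells of 32 samples was hybridised to Affymetrix arrays, 1 array a sample. The deposited values are log2 signals of 35556 probe sets, made with Affymetrix Expression Console per the submitters' processing notes. The program's version and its steps (background, normalization, summary) are not given in the sources at hand. Gene names came from the platform annotation, and 19,938 genes had a probe set naming no other gene. No filter on dim probe sets was used.

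limma 3.58.1 in R 4.3.3 was fitted once to all genes and arrays, with a mean for each of the 8 groups and the experiment as fixed block (18 residual and 21.7 total degrees of freedom, prior included). P-values are two-sided and adjusted by Benjamini-Hochberg over all genes, with a threshold of 0.05. The fit was tested on simulated data. Differences are GFP-positive minus GFP-negative, or odorant minus vehicle. The pairing comes from the number in the array titles. Deviations from the group means correlated above 0.1 in 48 of 48 pairs of arrays of an experiment (median 0.662; other experiments of a set, −0.208). Deviations from a group mean cancel over its arrays, which by itself pulls the correlations between experiments down. The number of arrays limits the precision, and 16 alternatives were tried.

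Members and gene lists were chosen with earlier results of these data known. Members named are, under vehicle, the 10 largest differences in each direction among those past the threshold with 1 sign in 8 of 8 experiments. Elsewhere they are at most the 5 largest past the threshold in each direction, or, with none, the 3 with the smallest p. Added to these were the 5 brightest members, Olfr544, Olfr545, Olfr558, Olfr78 and, of each list, the 2 genes with the smallest p. The remaining lower members, those that did not pass or were dim, Olfr543, the members named by family or as neighbours, Bcl11b, Lhx2, Ldb1, Robo2 and the members shown by sequence were chosen after their values were seen.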

Additional observations from a re-analysis of the deposited data

Results flagged for a closer look

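The values of 12 named members, of S100a5 and of the class I median were searched, in each group of 4 arrays, for an array far from its group, and 7 of 112 such searches found one. For a single search chance gives about 1 in 20. The searches share arrays and arrays of an experiment deviate together, so this rate is no yardstick for the count. Eugenol experiment 2 held the far array in 6 of them, always as the highest. In GFP-negative vehicle cells it had 9.73 for Olfr570, 10.65 for Olfr633, 9.86 for Olfr558 and 9.92 for Olfr616. In GFP-positive cells it had 12.44 for Olfr633 after vehicle and 11.92 for Olfr661 after eugenol. Muscone experiment 3 had the lowest GFP-negative array after muscone for Olfr661, at 6.82. Without eugenol experiment 2 Olfr570 and Olfr633 were still higher in GFP-positive vehicle cells past the threshold.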

How the results depend on the processing

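Over 16 alternatives the named members gave 1088 values with the same direction and side of the threshold, 12 that no longer passed, 10 that newly passed and 10 that reversed. Some alternatives could hardly move these values. A filter on dim probe sets and the mean of a gene's probe sets each left all 70 the same. Leaving out an experiment of 1 odorant set leaves the differences within the other set unchanged. Without the replicate block the counts of higher and lower members were 34 and 6 under vehicle, 12 and 4 after eugenol and 27 and 4 after muscone. Centred on the other odorant receptors, 27 members were lower under vehicle (median 0.35) and 27 after eugenol, 54 were higher and 19 lower after muscone, and in GFP-negative cells after muscone 5 were higher and 2 lower, with a median of 0.05, which reversed. Centred on the mature neuron list, 29 were lower under vehicle (median 0.28) and 27 after eugenol, 51 were higher and 19 lower after muscone, 1 was higher in the difference between sets, and the median in GFP-negative cells after muscone was −0.09. Centring shifts the zero by the receptors' or neurons' own difference between groups. Leaving out 1 experiment gave 4 to 8 lower members after muscone, 79 to 81 higher and 13 to 15 lower under vehicle, and no member past the threshold in any odorant effect. Under vehicle Olfr544 was −0.27 and −0.34 with the centrings, and Olfr545 −0.6 and −0.67, against −0.01 with quantile normalization, −0.03 without muscone experiments 2 and 3 (an alternative chosen after seeing the data) and −0.06 to 0.06 with 1 experiment left out. The cause of the other changes was not tested. Signals near the dim level limit what a fall can show.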

Other observations

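Some class I receptors could be read only through probe sets that also name another gene, while others also had a probe set of their own. The 10 probe sets shared in this way were in no count. Under vehicle 6 of them were higher in GFP-positive than in GFP-negative cells in 8 of 8 experiments and 0 were lower in 8 of 8. The probe set of Olfr560 and Olfr78, the orthologue of human OR51E2 and a receptor for short-chain fatty acids, differed by 0.66 ± 0.60 (SD, n = 8) and was higher in 7 of 8 experiments. The probe set of Olfr612 and Olfr611 was higher by 0.95 ± 0.4 in 8 of 8, whereas the probe set of Olfr611 alone was at −0.84 in the fit. The probe set of Olfr585, Olfr583 and Olfr566 was at −0.06 ± 0.44, whereas those of Olfr585 and Olfr566 alone were at −2.77 and 2.02. Probe sets of Olfr569, Olfr584 and Olfr582 together (1.24 ± 0.5) and of Olfr688 and Olfr689 (1.19 ± 0.31 and 1.32 ± 0.36) were higher in 8 of 8 experiments. No p is given for these mixed signals.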
